A study of Homo sapiens with 6 samples.

Results

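Mel 270 is an established human cell line of uveal melanoma, a tumour of the pigment cells of the eye, and the comparison described here is that of its response to activated T cells. The members were chosen by the array titles: 2 of the 6 arrays of the study, 1 of Mel 270 grown alone and 1 of Mel 270 grown with activated T cells. The other 4 arrays come from 2 further uveal melanoma lines, 92.1 and Mel 290, each alone and with activated T cells, and serve as background. In all groups the cells were plated in serum-containing medium (100000 cells of Mel 270 or Mel 290, 80000 of 92.1), moved to a serum-free medium when Mel 290 was confluent and the other lines nearly so, and kept there for 64 h. In the co-cultures the T cells, purified from blood of healthy volunteers and activated with beads against CD3 and CD28, sat in membrane inserts over the melanoma cells for those 64 h. Controls had no T cells, the labels describe no culture with resting T cells, and they do not say whether the lines shared a T cell donor. Total RNA was taken from the scraped melanoma cells of a single culture per line and condition. The study's title names chemokine expression under inflammation and the movement of monocytes as its question.

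Values are deposited on a log2 scale, so 1 unit is a 2-fold difference in signal, and a level can be compared between arrays for a gene but not between genes. There was 1 array a side, so no difference within Mel 270 has a replicate error, none was tested, and the number of arrays limits the precision. "Higher" and "lower" below describe the 2 arrays and not the condition at large. The 6 arrays had nearly equal medians, from 6.63 to 6.69. Melanocyte genes were read in the cultures grown alone. They were high in 92.1 too (TYRP1 13.19, MLANA 12.18, TYR 10.96), so they do not tell Mel 270 from 92.1. Mel 270 alone carried the pigment cell genes TYRP1 at 13.05, PMEL at 12.55, MLANA at 12.46, TYR at 11.72, OCA2 at 11.50 and the lineage regulators MITF at 11.03 and SOX10 at 9.21. SLC45A2, a melanosome transporter, was the exception, at 6.56, near Mel 290 (6.66) and below 92.1 (10.02). Mel 290 had TYRP1 at 5.19, MLANA at 4.92 and TYR at 4.79, under the low-signal limit used below, so a lower level of these genes could not show there.

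As background, activated T cells release interferon-gamma and tumour necrosis factor. Interferon-gamma acts through JAK kinases and, with the transcription factor IRF1, switches on antigen presentation, guanylate-binding proteins and the chemokines CXCL9, CXCL10 and CXCL11, while tumour necrosis factor acts through NF-kappaB, which turns on chemokines and its own inhibitors. Uveal melanoma is driven by mutations in the G-protein subunits GNAQ or GNA11, which signal through protein kinase C, RASGRP3 and the MAPK cascade, and its cells keep much of the pigment programme run by MITF.

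Of 13808 genes with enough signal to be compared, 730 (5.29%) were at least 2-fold higher in the Mel 270 co-culture and 624 (4.52%) at least 2-fold lower. Both ends were long: with low values raised, 93 genes were 3 or more log2 units higher and 53 were 4 or more higher, against 63 and 31 in 92.1 and 44 and 25 in Mel 290. The same held for lower genes, of which 114 were 2 or more units lower in Mel 270, 23 in 92.1 and 17 in Mel 290. The 2 Mel 270 arrays correlated at r = 0.878 across these genes, a description, since genes are not replicates. A signal under 5.80, the 25th percentile used as the low-signal limit, is poorly measured, and "low values raised" means that such values were set to 5.80 before the difference was taken. On that basis 711 tested genes were at least 2-fold higher and 590 lower. Of the 711, 266 were also at least 2-fold higher in 92.1 (37.4%, and 55.1% of those of 92.1), 164 also in Mel 290 (23.1%, and 60.1% of those of Mel 290), 111 in both and 392 (55.1%) in neither. Of the 590, 174 were also lower in 92.1 (29.5%, and 48.1% of those of 92.1), 64 also in Mel 290 (10.8%, and 21.8%), 28 in both and 380 (64.4%) in neither. Over all 18417 genes with a probe set, 2.73% were at least 2-fold higher in 92.1 and 1.60% in Mel 290, and 2.06% and 1.72% lower. Most genes are thus in neither, and so is a gene just short of 2-fold there. The counts in neither do not show a response particular to Mel 270. Fewer tested genes lay at least 2-fold above both other lines (263) or below both (199). The lines share no control array.

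**Figure D1:**
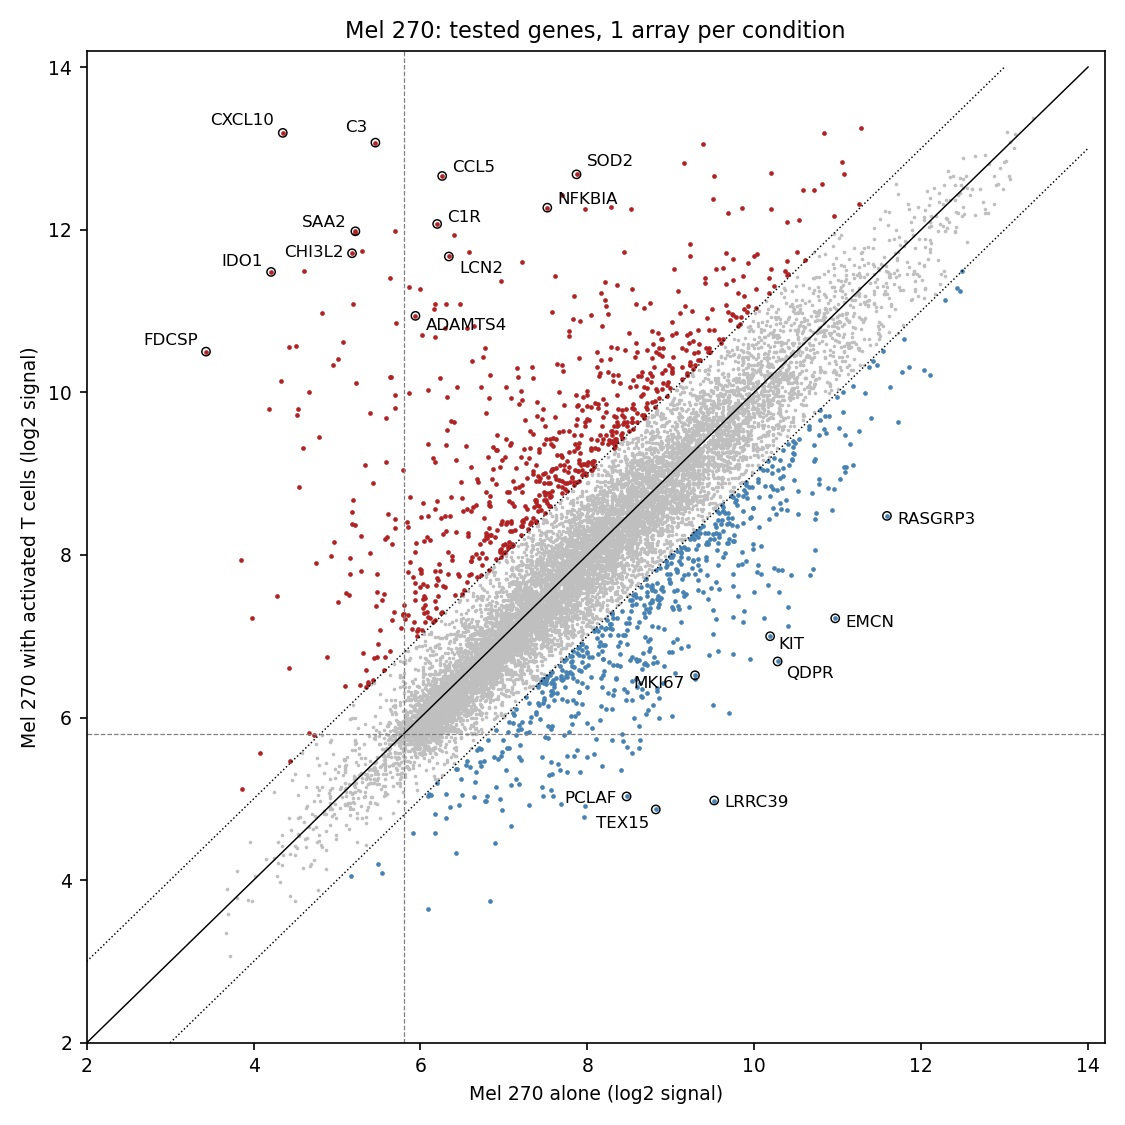
Each point is 1 of 13808 genes, with the log2 signal of Mel 270 alone on the horizontal axis and of the co-culture on the vertical axis. Red points (730) lie at least 2-fold above the diagonal and blue points (624) at least 2-fold below it, beyond the dotted lines; dashed lines mark the low-signal limit of 5.80, and CXCL10, C3 and CCL5 sit at the upper left while EMCN, KIT and QDPR sit at the lower right.

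Chemokines gave some of the greatest differences. CXCL10, which draws T cells and natural killer cells through CXCR3, read 4.35 alone and 13.19 in co-culture, a difference of 7.39 (168-fold) with the low value raised. Its partners on the same receptor followed: CXCL11 read 4.60 alone and 11.49 in co-culture and CXCL9 4.95 alone and 10.34 in co-culture. CXCL8, which draws neutrophils, read 6.40 alone and 11.93 in co-culture. In these CXCR3 and CXCR2 ligands 4 of 10 measured members were at least 2-fold higher and 0 lower, beside 3.97% higher and 3.28% lower over all 18417 genes with a probe set. The corresponding counts were 4 in 92.1 and 5 in Mel 290, where 2.73% and 1.60% of all genes were higher and 2.06% and 1.72% lower. Of the CC chemokines, CCL5, which draws T cells and monocytes, read 6.26 alone and 12.66 in co-culture, the greatest difference (6.39) of any gene measured above the limit on both Mel 270 arrays. CCL5 was about as high in the Mel 290 co-culture (6.13 and 12.87) and less so in 92.1 (5.57 and 8.48). CCL2, the main monocyte attractant, read 5.86 alone and 11.30 in co-culture in Mel 270, 5.46 and 9.90 in 92.1 and 6.61 and 10.76 in Mel 290, so its difference was 5.43 in Mel 270, 4.45 in 92.1 and 4.15 in Mel 290. CCL20, which draws cells bearing CCR6, read 4.61 alone and 8.07 in co-culture in Mel 270 and stayed under the limit in 92.1 (4.44 and 4.93), with 4.48 and 6.64 in Mel 290. In all, 5 of 19 other chemokines were at least 2-fold higher in Mel 270.

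Genes known to respond to interferon made up a broad group of higher genes. Of 23 interferon-gamma response genes 18 were at least 2-fold higher and 0 lower, with a median difference of 3.04 with low values raised (4.0 as deposited), beside 0.00 over all genes. In 92.1 the count was 19 and in Mel 290 17, so the group did not set Mel 270 apart by its count. IDO1, which breaks down tryptophan and restrains T cells, read 4.21 alone and 11.48 in co-culture. IRF1, the transcription factor that carries the interferon-gamma signal onward, read 6.17 alone and 10.68 in co-culture. UBD, a ubiquitin-like modifier, read 5.30 alone and 11.74 in co-culture, and GBP2, a guanylate-binding protein, read 4.51 alone and 10.57 in co-culture. Of 36 type I interferon response genes 26 were at least 2-fold higher in Mel 270, 24 in 92.1 and 26 in Mel 290, with medians of 2.18, 2.36 and 2.04. IFITM1 (5.70 alone and 11.98 in co-culture) and IFIT2 (5.19 alone and 11.08 in co-culture) restrict virus entry and translation, and BST2 (4.82 alone and 10.97 in co-culture) tethers budding virus. IFI6 was 4.73 higher in Mel 270, 2.73 in 92.1 and 3.04 in Mel 290. SAMD9L, an interferon-induced growth restraint, read 5.99 alone and 11.27 in co-culture. The interferon receptors and JAK-STAT genes themselves differed less (median 1.04): 11 of 21 were at least 2-fold higher in Mel 270, against 6 in 92.1 and 4 in Mel 290. Among them the receptor chain IFNGR1 read 7.53 alone and 8.96 in co-culture, the kinase JAK2 6.82 alone and 8.62 in co-culture and the feedback inhibitor SOCS3 6.02 alone and 7.08 in co-culture. GBP, IFIT, IFITM and APOL genes have close paralogs whose probes can bind each other's RNA, so single members are uncertain.

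In both classes of antigen presentation fewer genes were at least 2-fold higher in Mel 270 than in either other line. For MHC class I, 8 of 14 genes were at least 2-fold higher, with 12 in 92.1 and 11 in Mel 290. Of the 14, 1 was at least 2-fold above both other lines and 2 below both, beside 1.51% and 1.15% of all genes. PSMB9, a subunit of the immunoproteasome that cuts peptides for class I, read 6.16 alone and 11.03 in co-culture in Mel 270, 6.11 and 9.90 in 92.1 and 7.99 and 10.53 in Mel 290. TAP1, part of the pump that moves the peptides into the endoplasmic reticulum, read 8.28 alone and 12.28 in co-culture, and B2M, the light chain of class I, 10.59 alone and 12.49 in co-culture. NLRC5, the activator of class I genes, read 6.23 alone and 6.19 in co-culture in Mel 270, whereas it read 6.33 and 8.91 in 92.1 and 7.12 and 8.35 in Mel 290. For MHC class II, 3 of 13 genes were at least 2-fold higher in Mel 270 (CTSS, HLA-DOB and HLA-DPA1), against 6 in 92.1 and 9 in Mel 290, and 4 were at least 2-fold below both other lines. HLA-DPA1, the alpha chain of HLA-DP, read 5.14 alone and 7.51 in co-culture in Mel 270, 7.25 and 11.21 in 92.1 and 7.14 and 11.82 in Mel 290, so the Mel 270 co-culture was lower than both others. HLA-DPB1, its beta chain, read 6.08 alone and 6.18 in co-culture, against 7.83 and 9.49 in 92.1 and 6.44 and 10.73 in Mel 290. HLA-DMB, which helps load peptide onto class II, read 8.17 alone and 7.59 in co-culture in Mel 270, and it was higher in co-culture in 92.1 (8.09 and 9.43) and Mel 290 (6.80 and 9.22). The difference of HLA-DMB in Mel 270 minus the mean of the other lines was -2.46 (SE 0.50, limma, adjusted p = 0.27), which did not pass. CIITA, the activator of class II genes, read 6.87 alone and 6.82 in co-culture in Mel 270, 6.62 and 6.98 in 92.1 and 6.65 and 7.27 in Mel 290. CTSS, the protease that trims the invariant chain, was much higher in all lines, at 4.33 alone and 10.14 in co-culture in Mel 270. HLA genes are similar to each other and single members are uncertain.

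Complement and acute phase proteins, secreted parts of innate defence, held several of the highest values. C3, the central complement protein, read 5.46 alone and 13.07 in co-culture in Mel 270 and 5.45 and 9.02 in 92.1, and in Mel 290 it was already at 11.18 alone and 12.56 in co-culture. The proteases of the first complement complex, C1R (6.20 alone and 12.07 in co-culture) and C1S (5.21 alone and 11.96 in co-culture), and CFB of the alternative route (6.64 alone and 10.82 in co-culture) were also higher. In all 5 of 17 complement components were at least 2-fold higher in Mel 270, 4 in 92.1 and 4 in Mel 290. Acute phase and innate secreted proteins differed more between the lines by count: 10 of 22 were at least 2-fold higher in Mel 270, 4 in 92.1 and 4 in Mel 290. In addition, 7 were at least 2-fold above both other lines, beside 1.51% of all genes above and 1.15% below. The lists were chosen with earlier results of these data known, so counts for this and every other list are not independent of the values. SAA2, a serum amyloid A protein, read 5.22 alone and 11.98 in co-culture in Mel 270, 5.46 and 4.91 in 92.1 and 5.36 and 9.24 in Mel 290. SAA1 read 3.50 alone and 8.58 in co-culture and is close to SAA2 in sequence, so the pair is uncertain singly. LCN2, which binds bacterial iron carriers, read 6.34 alone and 11.67 in co-culture in Mel 270, 6.41 and 6.17 in 92.1 and 6.45 and 7.12 in Mel 290. SERPINA3, a protease inhibitor of the acute phase, read 6.17 alone and 11.09 in co-culture in Mel 270, 5.43 and 7.90 in 92.1 and 5.91 and 5.63 in Mel 290. FDCSP, a small secreted protein of follicular dendritic cells, read 3.43 alone and 10.50 in co-culture, with 4.18 and 9.24 in 92.1 and 4.45 and 6.03 in Mel 290. TNFAIP6, which binds hyaluronan in inflamed tissue, was higher in all lines and most so in Mel 290 (3.66 in Mel 270, 2.21 in 92.1, 6.89 in Mel 290).

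Targets and feedback genes of NF-kappaB were higher as a group, 18 of 24 in Mel 270 against 15 in 92.1 and 16 in Mel 290, with medians of 1.98, 1.40 and 1.40. NFKBIA, the inhibitor that holds NF-kappaB in the cytoplasm and is itself its target, read 7.52 alone and 12.27 in co-culture in Mel 270, 8.69 and 11.78 in 92.1 and 8.97 and 11.25 in Mel 290. TNFAIP3, the ubiquitin-editing brake A20, read 6.31 alone and 11.08 in co-culture, and SOD2, the mitochondrial superoxide dismutase, 7.87 alone and 12.68 in co-culture. SOD2 ended at a like level in all lines but began higher in Mel 290 (10.97 and 12.41). NFKB1, the precursor of the p50 subunit, read 8.21 alone and 11.14 in co-culture, a difference of 2.93 against 1.62 in 92.1 and 1.39 in Mel 290. ICAM1, the ligand for leukocyte integrins, was the reverse: it read 6.00 alone and 7.60 in co-culture in Mel 270, 8.74 and 12.28 in 92.1 and 5.91 and 9.43 in Mel 290, so it was higher in every line and least so in Mel 270. Of 20 AP-1 and immediate early factors 9 were at least 2-fold higher and 1, MYC, lower in Mel 270 (8 and 1 in 92.1, 6 and 0 in Mel 290). NR4A2 (6.78 alone and 9.75 in co-culture), ATF3 (6.87 alone and 9.33 in co-culture) and JUNB (8.28 alone and 10.56 in co-culture) were among them.

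Cytokines and immune ligands were more selective. Of 25 cytokines 5 were at least 2-fold higher in Mel 270, 7 in 92.1 and 9 in Mel 290. IL24, a cytokine of the interleukin-10 family, read 6.62 alone and 10.39 in co-culture in Mel 270 (5.23 and 7.28 in 92.1, 6.49 and 8.99 in Mel 290), and EBI3, the shared subunit of interleukins 27 and 35, read 6.44 alone and 10.07 in co-culture. IL6 read 5.19 alone and 8.67 in co-culture, with no such difference in 92.1 (5.39 and 5.78) and a larger one in Mel 290 (5.77 and 10.91). CSF1, the growth factor of macrophages, read 7.99 alone and 9.97 in co-culture. TNFSF10, the death ligand TRAIL, stayed under the limit in Mel 270 (4.56 alone and 4.96 in co-culture) while it read 7.07 in the 92.1 co-culture and 9.41 in that of Mel 290. Of 20 checkpoint and co-stimulation genes 6 were at least 2-fold higher in Mel 270, beside 3.97% of all genes. They were the enzyme IDO1 and the ligands CD274, PDCD1LG2, TNFSF9, PVR and CD47. CD274, the ligand PD-L1 that inhibits T cells, read 5.07 alone and 10.62 in co-culture in Mel 270, 4.76 and 9.76 in 92.1 and 7.09 and 11.46 in Mel 290. TNFSF9, the ligand of 4-1BB on T cells, read 8.22 alone and 9.85 in co-culture in Mel 270, with 7.60 and 7.90 in 92.1 and 8.26 and 8.34 in Mel 290. Its receptor TNFRSF9 was higher too, at 5.64 alone and 11.40 in co-culture, and in 92.1 (5.48 and 9.72), but little so in Mel 290 (5.32 and 6.07). LGALS3, galectin-3, was the lower member (10.45 alone and 9.17 in co-culture). Of 19 death receptor and caspase genes 6 were at least 2-fold higher, among them CASP4, a caspase that senses bacterial lipopolysaccharide (6.09 alone and 9.37 in co-culture), and FAS (7.26 alone and 9.13 in co-culture). PMAIP1 (NOXA, a BH3-only death protein, 6.40 alone and 9.64 in co-culture), BCL2A1 (5.43 alone and 7.47 in co-culture) and MCL1 (9.47 alone and 10.50 in co-culture), which oppose death, were the 3 higher members of 16 BCL2 family genes.

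**Figure D2:**
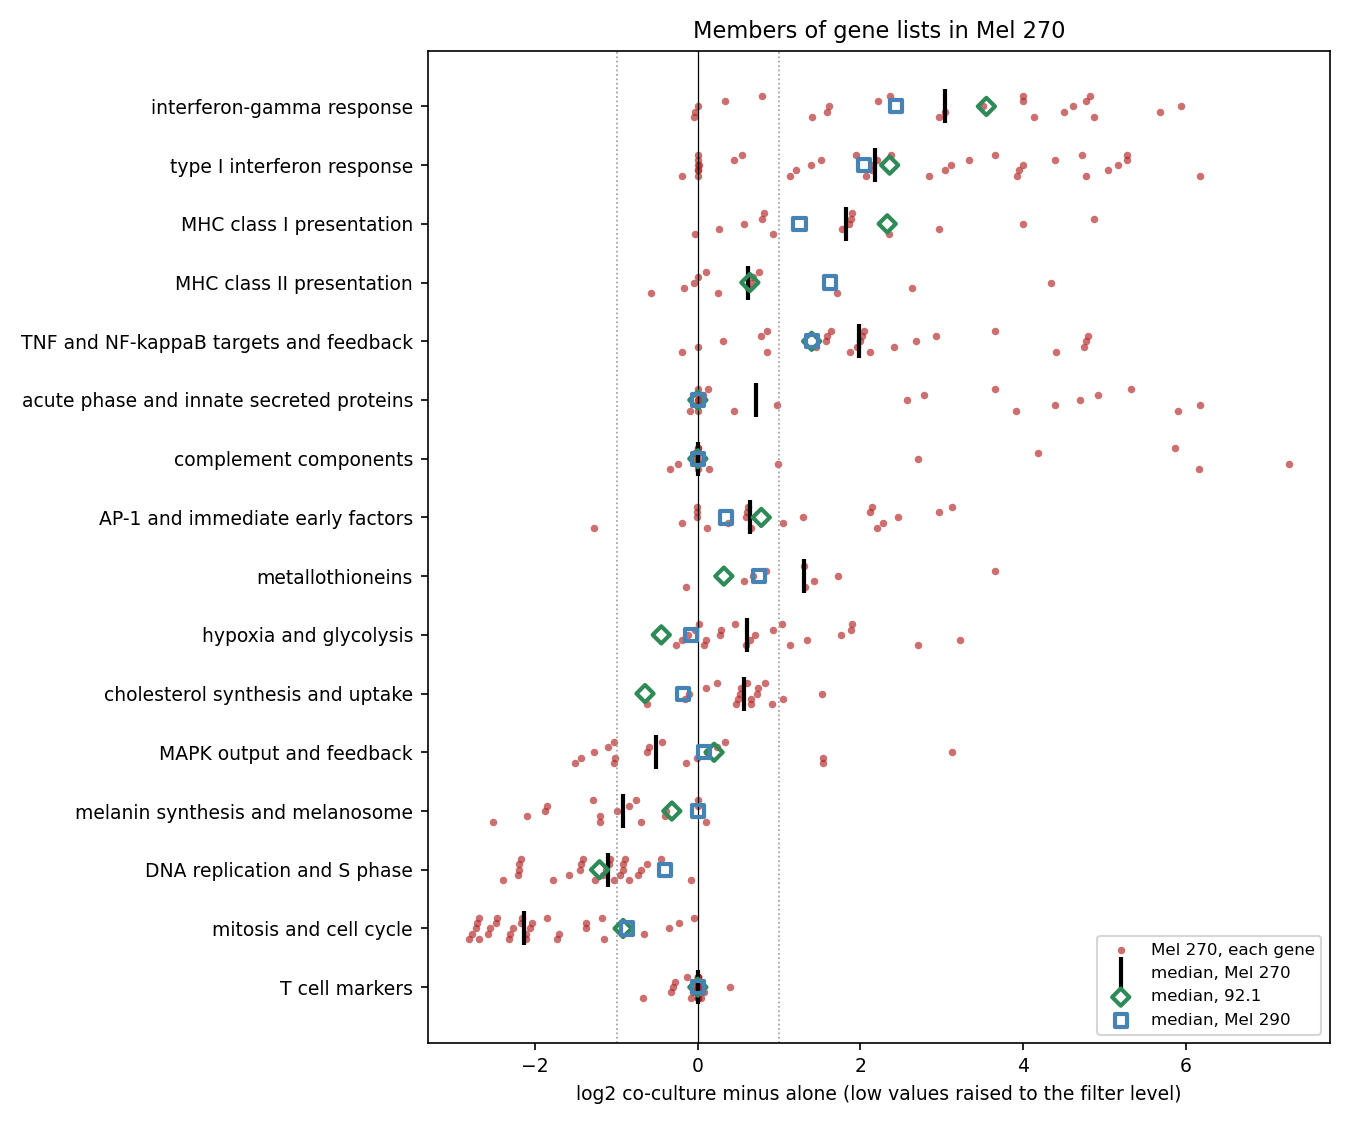
Each red point is the log2 difference (co-culture minus alone, low values raised to 5.80) of a list member in Mel 270, black bars are the Mel 270 medians, green diamonds those of 92.1 and blue squares those of Mel 290; dotted lines mark 2-fold. The medians of the interferon-gamma list (3.04 in Mel 270, 3.55 in 92.1, 2.44 in Mel 290) lie far to the right in every line, while the mitosis list lies further left in Mel 270 (-2.14) than in 92.1 (-0.92) or Mel 290 (-0.87) and T cell markers lie at 0.00.

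The sequence upstream of a few of these genes is shown, taken from genes of both routes and from genes furthest above the other lines. Every printed window holds a match. Genes furthest above the other lines whose window held no match are not printed, so the panel does not show how common matches are. Each line gives the 250 bases before the start of the gene as RefSeq places it on GRCh38.p14, 5′ to 3′ on the gene's strand, in lower case, with matches in capitals. The motifs searched on both strands were the gamma-activated site TTCNNNGAA, the interferon-stimulated element GAAANNGAAA and the NF-kappaB consensus.
CXCL10: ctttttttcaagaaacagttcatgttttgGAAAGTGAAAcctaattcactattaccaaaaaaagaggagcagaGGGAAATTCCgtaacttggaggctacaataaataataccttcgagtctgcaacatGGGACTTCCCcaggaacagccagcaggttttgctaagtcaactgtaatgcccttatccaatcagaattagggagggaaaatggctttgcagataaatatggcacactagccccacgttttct
IRF1: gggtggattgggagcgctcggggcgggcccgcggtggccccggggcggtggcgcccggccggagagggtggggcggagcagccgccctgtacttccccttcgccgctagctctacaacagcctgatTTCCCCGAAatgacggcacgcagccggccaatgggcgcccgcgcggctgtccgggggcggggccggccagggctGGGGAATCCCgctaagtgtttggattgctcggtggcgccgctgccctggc
NFKBIA: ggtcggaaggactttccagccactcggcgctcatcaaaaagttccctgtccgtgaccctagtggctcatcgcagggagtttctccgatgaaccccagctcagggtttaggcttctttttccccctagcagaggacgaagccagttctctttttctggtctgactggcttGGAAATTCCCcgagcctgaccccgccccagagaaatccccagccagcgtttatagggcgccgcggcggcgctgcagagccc
CHI3L2: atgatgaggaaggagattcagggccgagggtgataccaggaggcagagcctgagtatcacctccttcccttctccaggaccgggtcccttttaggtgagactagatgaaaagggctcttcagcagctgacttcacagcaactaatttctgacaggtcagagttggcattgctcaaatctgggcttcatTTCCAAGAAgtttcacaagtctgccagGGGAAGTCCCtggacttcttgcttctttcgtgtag
LCN2: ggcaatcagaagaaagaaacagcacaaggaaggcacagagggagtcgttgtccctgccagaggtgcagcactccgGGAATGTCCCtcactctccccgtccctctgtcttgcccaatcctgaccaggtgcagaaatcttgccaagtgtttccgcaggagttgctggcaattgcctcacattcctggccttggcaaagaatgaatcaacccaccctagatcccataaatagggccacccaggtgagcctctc
LGALS3BP: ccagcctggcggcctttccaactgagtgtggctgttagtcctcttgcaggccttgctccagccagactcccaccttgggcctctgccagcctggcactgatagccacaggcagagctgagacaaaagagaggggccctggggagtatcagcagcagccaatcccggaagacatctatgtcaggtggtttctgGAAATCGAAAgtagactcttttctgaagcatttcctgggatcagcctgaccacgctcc
TNFRSF1B: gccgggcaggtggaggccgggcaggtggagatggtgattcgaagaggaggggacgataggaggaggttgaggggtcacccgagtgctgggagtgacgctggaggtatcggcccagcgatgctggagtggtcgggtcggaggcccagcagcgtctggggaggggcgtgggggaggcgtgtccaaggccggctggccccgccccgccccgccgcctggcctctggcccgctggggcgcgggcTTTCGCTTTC

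The CXCL10 window (chr4:76023498-76023747 on the minus strand) held an interferon-stimulated element from -221 to -212 and NF-kappaB matches from -177 to -168 and from -122 to -113, counted from the gene's start. The IRF1 window (chr5:132490774-132491023 on the minus strand) held a gamma-activated site from -124 to -116 and an NF-kappaB match from -50 to -41, and the NFKBIA window (chr14:35404750-35404999 on the minus strand) an NF-kappaB match from -81 to -72. Of the genes furthest above the other lines, the first of 2 overlapping CHI3L2 windows (chr1:111227409-111227658 on the plus strand) held a gamma-activated site from -62 to -54 and an NF-kappaB match from -35 to -26. The LCN2 window (chr9:128149203-128149452 on the plus strand) held an NF-kappaB match from -175 to -166. LGALS3BP (chr17:78979924-78980173 on the minus strand) and TNFRSF1B (chr1:12166741-12166990 on the plus strand) held an interferon-stimulated element each, from -58 to -49 and from -10 to -1. Among 35116 windows of this length in the table, 9.96% held an NF-kappaB match, 6.57% a gamma-activated site and 3.02% an interferon-stimulated element; over the 27305 genes with any window the shares were 11.8%, 8.09% and 3.71%. Of the 15 genes with the greatest differences among those under the limit in Mel 270 alone, 9 had a window, of which 7 held the NF-kappaB match, 6 the gamma-activated site and 4 the interferon-stimulated element. Of the 15 genes with the greatest differences among those measured above the limit on both Mel 270 arrays 12 had a window, of which 3, 1 and 2 held these motifs in the same order. Of the 15 genes furthest above both other lines 8 had a window, and 2, 1 and 2 of these held the motifs. The opposite groups held motifs too. Among the 15 genes furthest below both other lines 13 had a window, and 2, 2 and 3 of these held the motifs. For the 15 lowest differences measured above the limit on both Mel 270 arrays, 12 had a window, with 2, 2 and 0. For the 10 lowest with 1 Mel 270 array below the limit, 6 had a window, with 0, 2 and 0. A match describes letters in this window only.

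For 263 of the 13808 genes (1.90%) the Mel 270 difference was at least 2-fold above that of both other lines, and for 199 (1.44%) at least 2-fold below both. Set against 92.1 alone, without Mel 290, these counts were 472 and 458, and against Mel 290 alone, without 92.1, 730 and 446. The difference between lines was tested once, with limma on the 3 differences, as Mel 270 minus the mean of the others, where the lone Mel 270 difference is assumed to vary like the other 2. With 1 residual degree of freedom it called 0 of 13808 genes (0%) at an adjusted p under 0.05. The smallest adjusted p was 0.053. Of the 13808 genes 951 had an unadjusted p under 0.05, 540 higher and 411 lower in Mel 270. Many genes of so large a number would fall under that threshold by chance, so this count is no result. So nothing below is shown to be particular to Mel 270. The SE comes from how far 92.1 and Mel 290 differed from each other and from the spread over all genes. Where both lines were near the low-signal limit, as for ADAMTS4 and PLA2G2A, the SE and adjusted p do not measure how responses vary.

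The genes furthest above both other lines were mostly secreted proteins, receptors and enzymes that were near the low-signal limit in Mel 270 alone. CHI3L2, a chitinase-like secreted protein, read 5.18 alone and 11.71 in co-culture in Mel 270, 4.98 and 6.20 in 92.1 and 5.63 and 6.67 in Mel 290. Its difference exceeded the mean of the others by 5.40 (SE 0.33, limma, adjusted p = 0.053). That p was between 0.0172 and 0.0497 with 4 alternative settings (the low-signal filter taken on the Mel 270 arrays, quantile normalization, the mean of all probe sets and eBayes with trend) and between 0.0526 and 0.26 with the other 4 that tested it; with a filter at the median it was not tested. LCN2, described above, exceeded them by 5.12 (SE 0.46, limma, adjusted p = 0.079). ADAMTS4, a protease that cuts the matrix proteoglycan aggrecan, read 5.94 alone and 10.94 in co-culture in Mel 270, 5.57 and 5.64 in 92.1 and 5.85 and 6.38 in Mel 290, an excess of 4.70 (SE 0.36, limma, adjusted p = 0.072). PLA2G2A, a secreted phospholipase of the acute phase, read 6.02 alone and 10.71 in co-culture in Mel 270, 5.97 and 5.68 in 92.1 and 5.95 and 6.19 in Mel 290, an excess of 4.71 (SE 0.37, limma, adjusted p = 0.072). LBP, which hands bacterial lipopolysaccharide to its receptor, read 5.65 alone and 10.19 in co-culture in Mel 270, 5.61 and 5.38 in 92.1 and 5.59 and 5.93 in Mel 290. In ADAMTS4, PLA2G2A and LBP the Mel 270 co-culture stood apart, since the other 5 arrays read 6.38 or less. TNFRSF1B, the second receptor for tumour necrosis factor, read 6.56 alone and 10.79 in co-culture in Mel 270 and stayed between 6.42 and 7.33 in the other arrays. MRGPRX3, an orphan G-protein-coupled receptor, read 6.29 alone and 10.79 in co-culture, with 5.83 and 6.97 in 92.1 and 5.67 and 6.73 in Mel 290.

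Other genes of this set were high in another line without T cells. LGALS3BP, a secreted galectin-binding glycoprotein, read 6.58 alone and 11.73 in co-culture in Mel 270, 10.39 and 11.28 in 92.1 and 9.69 and 11.57 in Mel 290, so the 3 co-cultures ended within 1 log2 unit of each other. STC1, a secreted glycoprotein hormone, read 5.69 alone and 9.97 in co-culture in Mel 270, 5.40 and 5.04 in 92.1 and 8.58 and 9.34 in Mel 290. ANTXR1, a receptor that binds collagen and anthrax toxin, read 5.34 alone and 9.11 in co-culture in Mel 270, 9.03 and 9.53 in 92.1 and 10.40 and 9.52 in Mel 290. SPP1, osteopontin, went the other way in Mel 290: it read 5.70 alone and 9.81 in co-culture in Mel 270, 4.72 and 4.96 in 92.1 and 8.15 and 5.70 in Mel 290. Its excess over the mean of the others was 5.22 (SE 1.02, limma, adjusted p = 0.25).

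**Figure D3:**
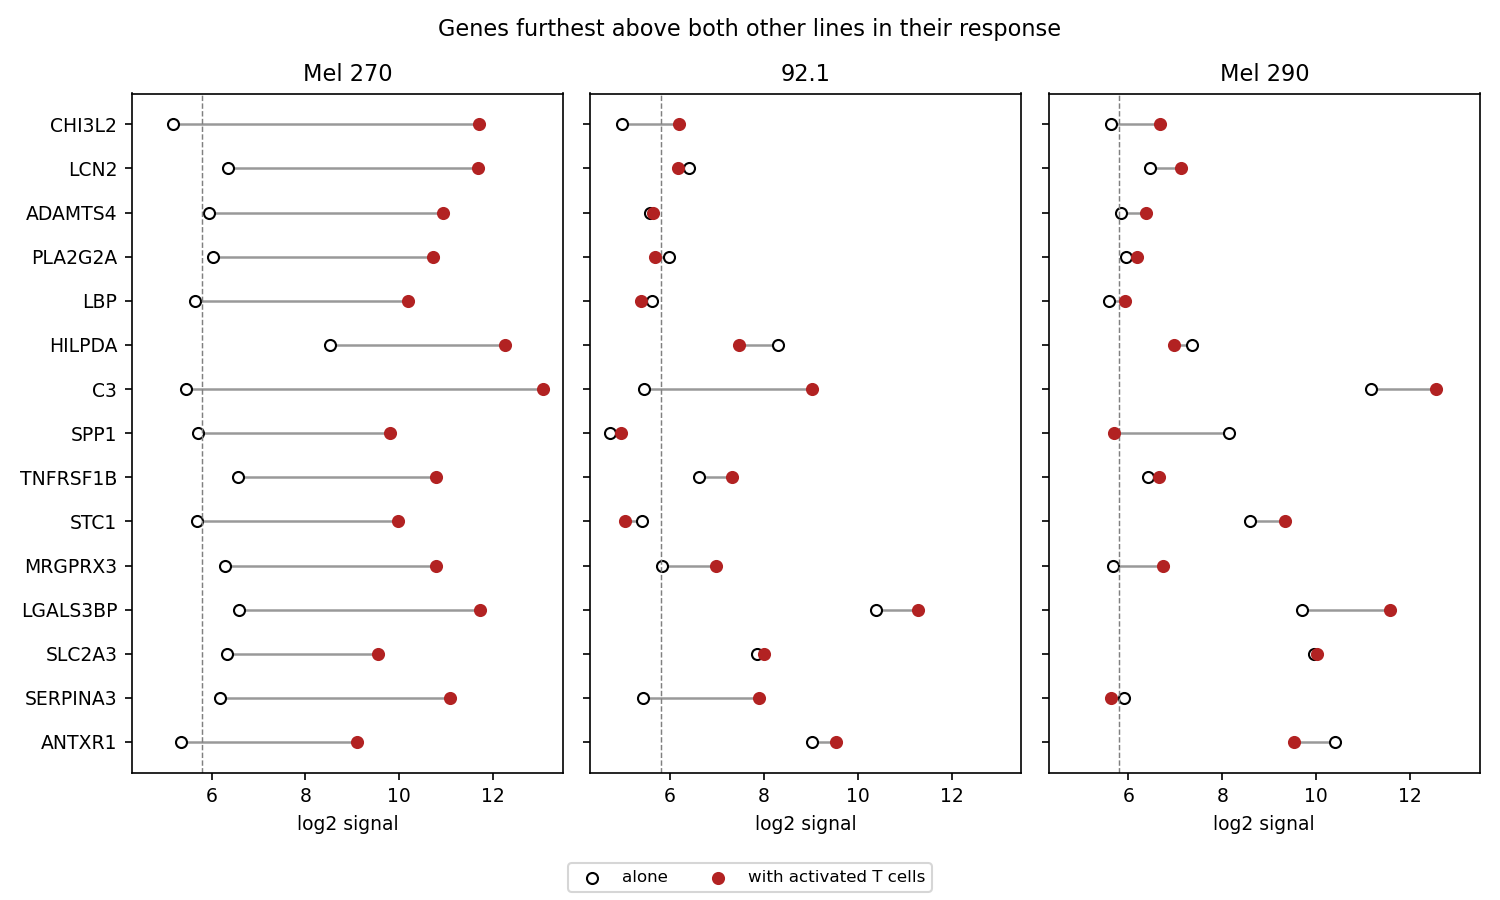
For the 15 genes furthest above both other lines, open circles give the log2 signal alone and red circles that with activated T cells, 1 panel per line, 1 array per circle; the dashed line is the low-signal limit of 5.80. The Mel 270 segments are long (CHI3L2 from 5.18 to 11.71), and those of 92.1 and Mel 290 are shorter for each gene. Some are still long, such as C3 (5.45 to 9.02) and SERPINA3 (5.43 to 7.90) in 92.1. Several run to the left, among them HILPDA in both lines, ANTXR1 in Mel 290 and, furthest, SPP1 in Mel 290 (8.15 to 5.70).

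Genes that hypoxia is known to turn on through HIF-1 were in part higher in the Mel 270 co-culture. By at least 2-fold 8 of 22 were higher and 0 lower, against 0 and 1 in 92.1 and 1 and 0 in Mel 290. Over all genes 3.97% were higher in Mel 270, 2.73% in 92.1 and 1.60% in Mel 290. The medians were 0.61, -0.45 and -0.08 in the same order of lines. Of the 22, 7 lay at least 2-fold above both other lines, beside 1.51% of all genes. HILPDA, which guards lipid droplets and is a known hypoxia gene outside the list, read 8.52 alone and 12.25 in co-culture in Mel 270, 8.30 and 7.47 in 92.1 and 7.36 and 6.97 in Mel 290. HILPDA was named because it was among the 15 genes furthest above both other lines, so it adds nothing to the list. Its excess over the mean of the other lines was 4.33 (SE 0.36, limma, adjusted p = 0.072). SLC2A3, the glucose transporter GLUT3, read 6.32 alone and 9.54 in co-culture in Mel 270, 7.86 and 8.01 in 92.1 and 9.96 and 10.02 in Mel 290, so Mel 270 began lowest. SLC2A1, the transporter GLUT1, read 8.46 alone and 9.80 in co-culture in Mel 270, and was lower in co-culture in 92.1 (8.96 and 8.15) and Mel 290 (12.24 and 11.36). HK2, the first enzyme of glycolysis, read 8.90 alone and 10.66 in co-culture, with 9.08 and 8.22 in 92.1 and 10.19 and 10.44 in Mel 290. VEGFA, the main vessel growth factor, read 9.17 alone and 11.06 in co-culture in Mel 270, 8.97 and 9.77 in 92.1 and 9.93 and 10.42 in Mel 290. ADM, adrenomedullin, which widens vessels, read 8.25 alone and 10.96 in co-culture, 6.79 and 6.85 and 9.50 and 11.19 in the same order. The glycolytic enzyme LDHA differed by 0.27 in Mel 270, -1.10 in 92.1 and -0.87 in Mel 290. Oxygen and cell number at harvest are not given in the labels, and their part in these values was not tested.

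Metallothioneins and single lipid genes were higher in Mel 270. Of 18 cholesterol synthesis genes 2 were at least 2-fold higher and 0 lower, but the medians were 0.57 in Mel 270, -0.65 in 92.1 and -0.18 in Mel 290. HMGCS1, which makes the precursor of the pathway, read 10.39 alone and 11.44 in co-culture in Mel 270, 11.80 and 10.50 in 92.1 and 12.35 and 12.00 in Mel 290. Of 14 fatty acid synthesis and desaturation genes 3 were at least 2-fold higher and 0 lower, with a median of -0.02, against -0.26 in 92.1 and -0.43 in Mel 290. The higher members were ACSL4, ACSL1 and FADS1. ACSL4 and ACSL1, which activate long fatty acids, read 8.35 alone and 10.54 in co-culture and 9.93 alone and 11.59 in co-culture, and FADS1, a desaturase, 9.13 alone and 10.54 in co-culture. ACSL1 was lower in the 92.1 co-culture (9.32 and 8.04). Metallothioneins, which bind zinc and copper, were at least 2-fold higher in 5 of 9 members, 1 in 92.1 and 3 in Mel 290. MT2A read 9.16 alone and 12.82 in co-culture in Mel 270, 10.07 and 11.24 in 92.1 and 12.87 and 13.64 in Mel 290. The MT1 genes are nearly alike in sequence and are uncertain singly. Genes of the ATF4 stress response parted from 92.1: 2 of 22 were at least 2-fold higher and 3 lower in Mel 270, 10 and 0 in 92.1, 0 and 1 in Mel 290. ASNS, asparagine synthetase, read 9.96 alone and 8.47 in co-culture in Mel 270 and 7.31 and 9.92 in 92.1.

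Matrix and adhesion genes were mixed. Of 28 matrix proteases and inhibitors 5 were at least 2-fold higher and 1 lower in Mel 270, 0 and 1 in 92.1 and 4 and 2 in Mel 290. PLAT, tissue plasminogen activator, read 8.35 alone and 11.32 in co-culture, its inhibitor SERPINE2 9.85 alone and 12.27 in co-culture, and TIMP1, which blocks metalloproteinases, 6.54 alone and 9.34 in co-culture. These 3 differed little in 92.1 (-0.04, 0.57 and 0.27) and Mel 290 (0.87, 0.43 and 0.58). FN1, fibronectin, read 10.20 alone and 12.70 in co-culture in Mel 270 and 8.04 and 10.48 in 92.1. LAMB3, a laminin chain of epithelial basement membrane, read 6.32 alone and 9.94 in co-culture. The integrins ITGA5 (8.27 alone and 10.41 in co-culture), ITGA9 (7.49 alone and 9.59 in co-culture) and ITGB8 (8.14 alone and 10.20 in co-culture) were the 3 higher members of 14. CDH11, a mesenchymal cadherin (5.54 alone and 7.45 in co-culture), was higher and CDH3, P-cadherin (8.39 alone and 6.93 in co-culture), lower, and 4 of 14 cadherins and EMT factors were at least 2-fold higher and 1 lower. Of 26 collagens, laminins and matrix genes 2 were higher and 1, LAMA4 (8.50 alone and 7.16 in co-culture), lower. Of 16 leukocyte adhesion molecules 2 were higher, ICAM1 and L1CAM. L1CAM, a neural adhesion molecule, read 8.77 alone and 10.42 in co-culture in Mel 270 and was lower in the 92.1 co-culture (7.34 and 6.45).

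Genes of cell division were lower throughout. Of 30 mitosis and cell cycle genes 26 were at least 2-fold lower in Mel 270 and 0 higher, against 11 lower in 92.1 and 12 in Mel 290. Their median was -2.14 in Mel 270, -0.92 in 92.1 and -0.87 in Mel 290, beside 0.00 over all genes in each line. Over all genes with a probe set 3.28% were at least 2-fold lower in Mel 270, 2.06% in 92.1 and 1.72% in Mel 290. In 15 of the 30 the Mel 270 difference was at least 2-fold below both other lines, beside 1.15% of all genes. MKI67, the proliferation antigen Ki-67, read 9.29 alone and 6.52 in co-culture in Mel 270, 10.02 and 9.02 in 92.1 and 9.40 and 8.73 in Mel 290. Its difference in Mel 270 minus the mean of the other lines was -1.94 (SE 0.34, limma, adjusted p = 0.21). KIF20A and KIF23, kinesins of the dividing cell's midzone, read 9.29 alone and 6.48 in co-culture and 9.46 alone and 6.77 in co-culture. TOP2A, which untangles chromosomes, read 9.86 alone and 7.17 in co-culture in Mel 270, 10.72 and 9.98 in 92.1 and 10.81 and 9.76 in Mel 290. CDK1, the kinase that starts mitosis, read 7.96 alone and 4.78 in co-culture, and BUB1B of the spindle checkpoint 8.62 alone and 5.90 in co-culture. The Mel 270 co-culture was the lowest of the 6 arrays for MKI67, TOP2A and BUB1B. CCNE1, CCNE2, BIRC5 and AURKA were the members less than 2-fold apart, with CCNE1, the cyclin of the start of S phase, at 7.36 alone and 7.12 in co-culture. In bulk RNA, fewer dividing cells and less of these RNAs in each cell cannot be told apart.

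Replication genes were lower too, but in a different order of lines. Of 26 DNA replication genes 16 were at least 2-fold lower in Mel 270, 19 in 92.1 and 2 in Mel 290, with medians of -1.11, -1.21 and -0.40. TYMS, thymidylate synthase, read 10.24 alone and 7.84 in co-culture in Mel 270, 10.56 and 9.29 in 92.1 and 9.64 and 8.47 in Mel 290, and was the 1 member at least 2-fold below both. GINS2, of the replicative helicase, read 8.63 alone and 6.43 in co-culture in Mel 270 and 10.50 and 8.41 in 92.1. Of the CDK inhibitors and p53 targets 3 of 15 were at least 2-fold higher, with CDKN1A (p21) at 8.60 alone and 10.50 in co-culture in Mel 270, 8.53 and 9.21 in 92.1 and 7.22 and 8.22 in Mel 290. PLK2, a kinase induced by stress, read 8.44 alone and 11.73 in co-culture in Mel 270 and 7.92 and 10.88 in 92.1, and was lower in the Mel 290 co-culture (11.52 and 10.69).

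Pigment cell genes were lower in the Mel 270 co-culture. Of 16 melanin and melanosome genes 7 were at least 2-fold lower and 0 higher, against 6 in 92.1 and 0 in Mel 290, where TYR, TYRP1 and MLANA were under the limit. TYR, tyrosinase, the first enzyme of melanin synthesis, read 11.72 alone and 9.63 in co-culture in Mel 270 and 10.96 and 9.39 in 92.1. SLC24A5, a melanosome ion exchanger, read 10.33 alone and 7.81 in co-culture and 10.48 and 9.39 in these lines. MLPH, which links melanosomes to the motor that moves them, read 9.99 alone and 8.13 in co-culture in Mel 270, 7.21 and 7.03 in 92.1 and 5.89 and 6.31 in Mel 290. MLANA, the MART-1 antigen, read 12.46 alone and 11.25 in co-culture in Mel 270 and 12.18 and 11.93 in 92.1. TYRP1 (13.05 alone and 12.66 in co-culture) and PMEL (12.55 alone and 11.85 in co-culture) were less than 2-fold lower. MITF, the master regulator of the lineage, read 11.03 alone and 8.93 in co-culture in Mel 270, 11.01 and 10.22 in 92.1 and 8.96 and 8.16 in Mel 290, and Mel 270 differed from the mean of the other lines by -1.31 (SE 0.32, limma, adjusted p = 0.36). Of 15 lineage regulators 4 were at least 2-fold lower and 1 higher, against 1 lower in 92.1 and 1 in Mel 290. KIT, the receptor of stem cell factor, read 10.19 alone and 7.0 in co-culture in Mel 270 and was under the limit on the other 4 arrays, so no other line could have shown a lower KIT. ERBB3, a receptor of neuregulin, read 8.84 alone and 6.68 in co-culture, and SOX5 8.69 alone and 6.99 in co-culture. SOX10, which sustains MITF, differed by -0.47. ZEB2, a transcription factor of the melanocyte lineage, was the higher regulator, at 9.92 alone and 11.06 in co-culture. S100B, another melanocyte marker, read 9.07 alone and 6.20 in co-culture in Mel 270 and 4.71 and 4.76 in 92.1.

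**Figure D4:**
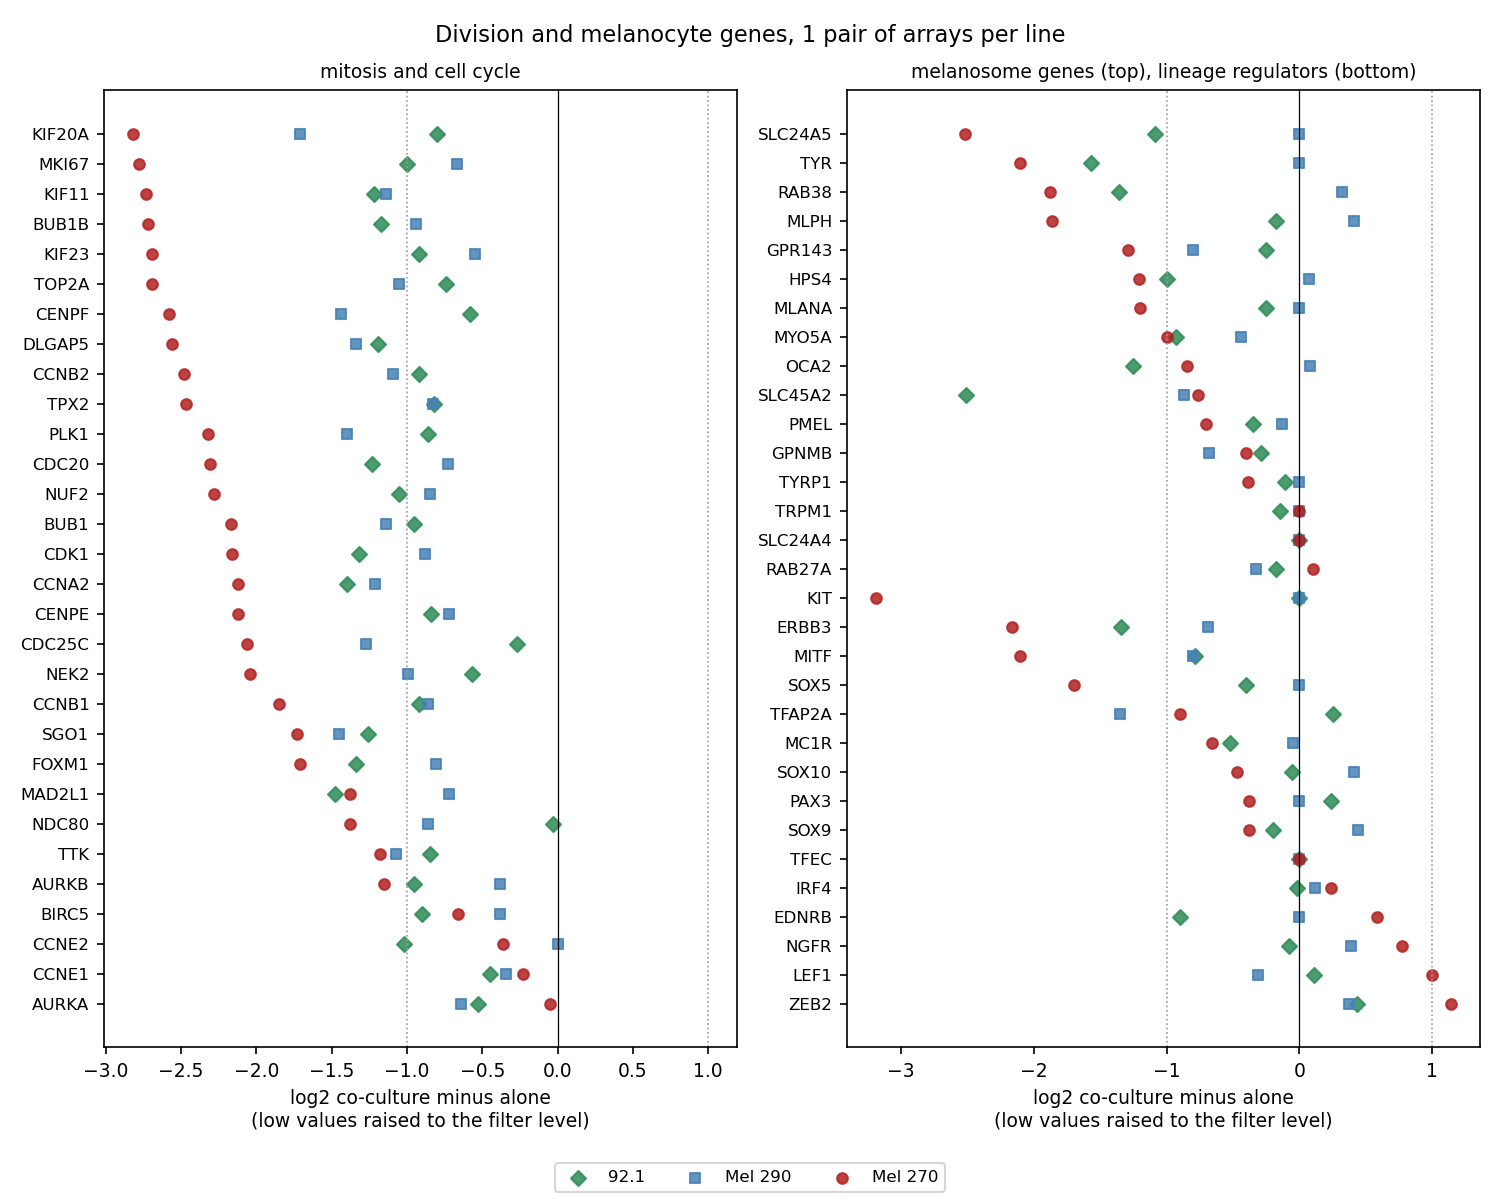
Log2 differences (co-culture minus alone, low values raised to 5.80) of every measured member of the mitosis list (left) and of the melanosome and lineage lists (right), with red circles for Mel 270, green diamonds for 92.1 and blue squares for Mel 290; dotted lines mark 2-fold. Most mitosis genes of Mel 270 lie left of both other lines (-2.82 for KIF20A), and KIT and SLC24A5 lie furthest left on the other side.

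Genes known to be turned on by the MAPK cascade, several of which feed back to restrain it, parted by member. Of 18, 7 were at least 2-fold lower and 3 higher in Mel 270, against 0 and 3 in 92.1 and 0 and 3 in Mel 290. The lower members were the phosphatases DUSP4 and DUSP6, the inhibitor SPRY2, the factors ETV1, ETV4 and ETV5, and MYC. DUSP6, which switches ERK off, read 7.14 alone and 6.10 in co-culture in Mel 270 and was higher in co-culture in 92.1 (7.76 and 8.43) and Mel 290 (7.22 and 8.23). ETV5 read 10.33 alone and 8.82 in co-culture in Mel 270, 9.75 and 9.31 in 92.1 and 8.61 and 8.28 in Mel 290. SPRY2 read 9.01 alone and 7.98 in co-culture, 9.43 and 9.65 and 8.83 and 9.31 in that order. The higher members were IER3 (9.52 alone and 12.66 in co-culture), DUSP5 (7.22 alone and 8.77 in co-culture) and PHLDA1 (9.49 alone and 11.03 in co-culture). RASGRP3, the Ras activator downstream of GNAQ, read 11.59 alone and 8.48 in co-culture in Mel 270, 11.33 and 10.55 in 92.1 and 5.56 and 5.32 in Mel 290. Its difference of -3.11 lay -2.33 from that of the nearer line.

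EMCN, endomucin, a sialomucin best known from endothelium, had the lowest difference of the genes measured above the limit on both Mel 270 arrays. It read 10.97 alone and 7.22 in co-culture in Mel 270, 10.58 and 10.98 in 92.1 and 4.23 and 4.0 in Mel 290, and Mel 270 differed from the mean of the others by -3.84 (SE 0.39, limma, adjusted p = 0.084). Mel 270 and 92.1 thus began at like levels and only Mel 270 was lower. MEF2C, a transcription factor, gave the same picture, with 10.30 alone and 7.55 in co-culture in Mel 270, 10.48 and 10.65 in 92.1 and 5.71 and 5.74 in Mel 290. LRRC39, a leucine-rich repeat protein, read 9.52 alone and 4.98 in co-culture in Mel 270 and 9.52 and 8.48 in 92.1. QDPR, which recycles the cofactor tetrahydrobiopterin, read 10.28 alone and 6.69 in co-culture in Mel 270, 9.09 and 7.79 in 92.1 and 7.93 and 7.37 in Mel 290, so it was lower in each line and most so in Mel 270. RXRG, a retinoid X receptor (9.95 alone and 6.72 in co-culture), KRTAP19-1, a keratin-associated protein (10.41 alone and 7.36 in co-culture), GSTA3, a glutathione transferase (9.56 alone and 6.82 in co-culture), and NPY6R (10.16 alone and 7.63 in co-culture) had signals under the limit on the other 4 arrays. For these 4 genes and KIT the distance from the other lines rests on Mel 270 alone having a signal to lose. EMCN, MEF2C, LRRC39 and RASGRP3 were under the limit on both Mel 290 arrays, so only 92.1 could have shown a lower level. C1orf116 read 9.70 alone and 6.05 in co-culture in Mel 270, 6.40 and 5.60 in 92.1 and 5.93 and 5.75 in Mel 290. Both other lines thus began near the limit, with little C1orf116 signal to lose. MTND2P28, a copy of a mitochondrial gene in the nucleus, read 10.73 alone and 8.06 in co-culture, but its probes can bind the mitochondrial RNA and it is uncertain.

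A pair of the genes below both lines were there because they were higher elsewhere. RSPO3, which strengthens WNT signals, stayed under the limit in Mel 270 (5.48 alone and 5.18 in co-culture) and read 5.25 and 8.68 in 92.1 and 6.10 and 8.82 in Mel 290. CEACAM1, an adhesion molecule that can inhibit lymphocytes, read 8.68 alone and 8.59 in co-culture in Mel 270, 7.73 and 10.42 in 92.1 and 5.62 and 8.45 in Mel 290. The Mel 270 difference minus the mean of the others was -2.84 (SE 0.32, limma, adjusted p = 0.096).

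**Figure D5:**
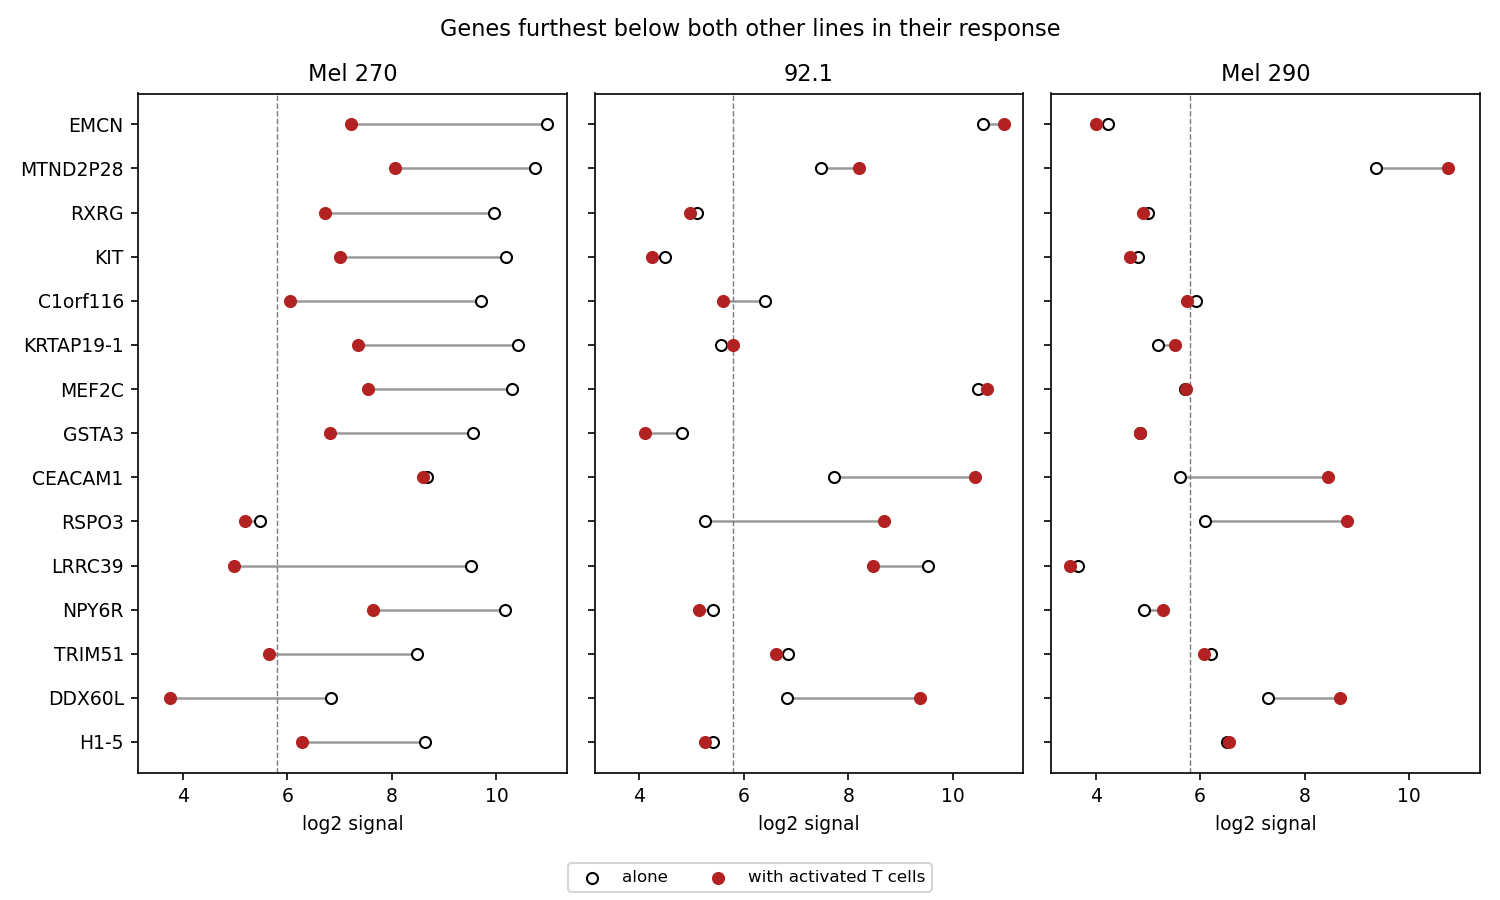
For the 15 genes furthest below both other lines, open circles give the log2 signal alone and red circles that with activated T cells, 1 panel per line, 1 array per circle; the dashed line is the low-signal limit of 5.80. EMCN and MEF2C are lower with T cells in Mel 270 only, RXRG and KIT have no signal above the limit in the other lines, and CEACAM1 and RSPO3 are there because the other lines were higher.

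MicroRNA genes were looked at after their values had been seen. Of 164 microRNA genes with a probe set 53 passed the low-signal limit; 6 of the 164 (3.66%) were at least 2-fold higher in Mel 270 with low values raised and 0 lower. That share is near the 3.97% of all genes, so the count is no result about microRNA genes, and the 6 are described singly. The mature sequences from RefSeq are printed with the seed (bases 2 to 8) in capitals, because the seed sets which messages a microRNA can pair with.
hsa-miR-21-5p: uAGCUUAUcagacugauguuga
hsa-miR-146a-5p: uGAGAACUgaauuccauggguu
hsa-miR-221-3p: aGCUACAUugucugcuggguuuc
hsa-miR-222-3p: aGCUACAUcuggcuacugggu
hsa-miR-29a-3p: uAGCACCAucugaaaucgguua

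MIR21 read 6.47 alone and 11.08 in co-culture in Mel 270, 5.42 and 10.13 in 92.1 and 8.86 and 9.85 in Mel 290. MIR146A, a known target of NF-kappaB that dampens it, read 5.59 alone and 9.68 in co-culture in Mel 270, 5.63 and 7.92 in 92.1 and 4.07 and 4.0 in Mel 290, where it stayed under the limit. The neighbours MIR221 (5.79 alone and 7.27 in co-culture) and MIR222 (5.68 alone and 7.30 in co-culture), whose printed mature forms share a seed, were higher together. MIR29A (4.40 alone and 7.17 in co-culture) and MIR181B1 (6.74 alone and 8.02 in co-culture) were the others. The probe sets read longer RNA of the gene and not the mature form.

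Markers of other cells were checked, above all of the T cells in the inserts. Of 28 T cell markers 0 were at least 2-fold higher and 0 lower in Mel 270, with differences from -0.67 to 0.40 and a mean level of 5.50 alone and 5.42 in co-culture. The defining markers were under the limit on both arrays: CD3E read 4.68 alone and 4.92 in co-culture, CD3D 5.62 alone and 5.47 in co-culture, CD2 5.06 alone and 4.89 in co-culture and PTPRC (CD45) 4.04 alone and 3.90 in co-culture. IFNG read 3.44 alone and 3.33 in co-culture. Of 15 monocyte and macrophage markers 1, CD68, a lysosomal protein that other cells also make, was at least 2-fold higher (9.33 alone and 10.76 in co-culture), and the mean level was 5.49 alone and 5.50 in co-culture. Among 8 B cell markers FCRLA, which pigment cells are known to make, was higher (9.51 alone and 12.38 in co-culture) and CD22 lower (8.77 alone and 7.12 in co-culture). Of 11 endothelial markers 1, EMCN, was lower. No member of the fibroblast (11 measured) or retinal pigment epithelium (8) lists was 2-fold apart in Mel 270.

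Some smaller groups held single large differences. Of 20 genes of prostaglandin and tryptophan metabolism 5 were at least 2-fold higher in Mel 270, and the same number in each other line. KYNU, which acts after IDO1 in tryptophan breakdown, read 7.97 alone and 12.26 in co-culture in Mel 270, 3.80 and 8.17 in 92.1 and 4.90 and 10.00 in Mel 290. PLA2G4A, which frees arachidonic acid, read 9.09 alone and 11.24 in co-culture in Mel 270 and 7.58 and 7.97 in 92.1. Of 20 angiogenic growth factors 3 were higher, ADM, VEGFA and VEGFC (8.34 alone and 9.51 in co-culture), and 2 lower, HBEGF (7.97 alone and 6.62 in co-culture) and SERPINF1, an inhibitor of vessel growth (7.90 alone and 6.77 in co-culture). HBEGF, a ligand of the EGF receptor, was lower in 92.1 too (7.70 and 6.57) and higher in Mel 290 (8.03 and 9.25).

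Several groups differed little. No cytosolic ribosomal protein gene of 21 was 2-fold apart (median -0.32), nor were 27 respiratory chain genes except ATP5F1A, of ATP synthase, which read 10.89 alone and 9.71 in co-culture; their median was -0.50, with -0.41 in 92.1 and -0.36 in Mel 290. Of 16 unfolded protein response genes 1, DNAJB9, was at least 2-fold higher (7.95 alone and 9.94 in co-culture). Of 27 WNT genes 1, WNT5A, was higher (5.80 alone and 7.27 in co-culture). Among markers that separate low-risk class 1 from high-risk class 2 uveal melanoma, 2 of 13 were at least 2-fold higher, ROBO1 (8.68 alone and 11.04 in co-culture) and ECM1 (6.66 alone and 8.01 in co-culture), and 0 lower. Of 18 potassium channels 2 were lower and 1 higher, with KCNQ5 at 8.53 alone and 6.22 in co-culture and KCNAB2 at 10.88 alone and 8.82 in co-culture. Of 10 complement regulators 1, SERPING1, the inhibitor of C1, was higher (5.60 alone and 8.22 in co-culture).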

How the data were processed

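Total RNA of 3 uveal melanoma lines was measured on 6 Affymetrix arrays. The deposited log2 values were made by the authors with Affymetrix Expression Console 1.2.0.20, per the submitters' processing notes; background correction, summarization and normalization: not given in the sources used here. They were used as deposited, so no scaling of low or high signals could be undone. Of 33297 probe sets 19460 had 1 gene symbol in the array annotation, 1754 had several and 12083 were not listed; 19429 matched a current RefSeq symbol (GRCh38.p14) and 31 kept the old one, which gave 18417 genes. The probe set with the highest mean was kept per gene (647 of the tested genes had several). Genes with a mean over the 6 arrays at or above the 25th percentile of the listed probe sets (5.80) were tested, which left 13808. Lists are described over all members with a probe set.

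Differences are log2, co-culture minus alone, within a line. The differences of the 3 lines were compared with limma 3.58.1 in R 4.3.3 (lmFit, eBayes, prior degrees of freedom 4.85, Benjamini-Hochberg adjustment over all tested genes). The code was first run on simulated data. That run required only that known shifts were recovered on average, and it does not give the error rate in these data. Named genes are the 15 highest and 15 lowest differences with both Mel 270 arrays at or above 5.80, the 15 highest and 10 lowest with 1 below it, the 15 furthest above and the 15 furthest below both other lines, and list members; other genes named were chosen after their values were seen. The members and the lists were chosen with earlier results of these data known. Alternatives were other scalings and filters, the mean of all probe sets of a gene, eBayes with trend and leaving out a line.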

Additional observations from a re-analysis of the deposited data

Results flagged for a closer look

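DDX60L, a helicase-like gene close in sequence to DDX60 and so uncertain, differed by -1.03 in Mel 270 with low values raised, while it differed by 2.56 in 92.1 and 1.36 in Mel 290. It drew attention because the sign was opposite to that of both other lines; this opposition was not tested beyond the comparison of all genes (limma, adjusted p = 0.088). The levels were 6.83 alone and 3.75 in co-culture in Mel 270, 6.82 and 9.38 in 92.1 and 7.31 and 8.67 in Mel 290. Its paralog DDX60 was higher in Mel 270 (6.82 alone and 9.93 in co-culture).

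Among 13837 probe sets with no single gene name, which entered no comparison, 332 (2.40%) were at least 2-fold higher in the Mel 270 co-culture and 93 (0.672%) lower.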

How the results depend on the processing

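The number of genes whose difference passed limma in Mel 270 against the mean of the other lines was 0 as reported. It was 17 with the low-signal filter taken on the 2 Mel 270 arrays (smallest adjusted p 0.017), 5 with quantile normalization, 1 with the mean of all probe sets of a gene and 1 with eBayes with trend; CHI3L2 was called in each of these 4, with adjusted p from 0.0172 to 0.0497, and ADAMTS4, PLA2G2A, HILPDA and LBP in the first 2. A filter on the Mel 270 arrays keeps genes through Mel 270 itself. The number was 0 with no filter, with a filter at the median, with cyclic loess, with median centring and with low values raised. Genes at least 2-fold above the other lines numbered 472 to 730, against 263, and genes below them 446 to 458, against 199, when 1 line was left out, since 1 line then stood for both. Without 92.1 or Mel 290 the limma comparison has no residual degrees of freedom and was not run. The share of higher genes among those 2-fold apart in Mel 270 was 53.9% as deposited, 57.2% with loess, 52.0% with quantile normalization and 54.1% with median centring. None of 296 single genes changed sign under the other scalings, low values raised or probe sets averaged. They were the genes named by rule and list members at least 2-fold apart in Mel 270, so few small differences were among them. Raising low values cannot reverse the sign of a gene, so the lack of sign changes says little about stability. Of 47 list medians those near 0 changed sign (angiogenic growth factors, integrins and fatty acid synthesis). Raising low values moved 41 genes and 2 medians (interferon-gamma and acute phase) by more than the robust spread of differences in Mel 270 (0.39). Averaging probe sets moved 7 genes. The limma comparison rests on differences within each line, so line was already paired. Low signals are limited by background and the rest by the number of arrays.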
